A study of Mus musculus with 60 samples.

Results

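The 10 genes described here encode the pulmonary surfactant proteins (Sftpa1, Sftpb, Sftpc and Sftpd), 3 secretoglobins of the conducting airway (Scgb1a1, Scgb3a1 and Scgb3a2) and 3 proteins of the lamellar body pathway (Napsa, Lamp3 and Abca3). They were picked by symbol from a list, and all 10 were found among the 54532 genes of the count table and among the 18562 genes that passed the filter on low counts. Lung, the tissue in which these genes are best known, was set against blood, bone marrow, brain, colon, the female reproductive tract, heart, inguinal lymph node, kidney, liver, mesenteric lymph node, skin, small intestine, spleen and thymus. All groups came from female C57BL6/J mice at 6 weeks of age that were perfused with buffered saline and EDTA, and each of the 15 tissues had 4 libraries. Nothing in the labels ties a replicate number to a mouse, so p-values measure the spread between the libraries of a tissue.

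Surfactant is a film of lipid and protein that lowers surface tension in the alveolus. Alveolar type 2 cells make it, store it in lamellar bodies and secrete it. SP-B and SP-C, from Sftpb and Sftpc, are small hydrophobic proteins that spread the lipid, whereas SP-A and SP-D, from Sftpa1 and Sftpd, are collectins that bind sugars on microbes. Napsa encodes an aspartic protease that trims the SP-B precursor, Lamp3 a membrane protein of lamellar bodies, and Abca3 a transporter that loads lipid into them. Secretoglobins are small secreted proteins of the airway lining, and Scgb1a1 is the classical product of club cells.

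Reads came from 3' ends of polyadenylated RNA, and no molecular identifiers are described. Library totals ran from 904970 to 1202994 counts in lung and from 353605 to 5211133 counts over all 60 libraries. Lung and colon were the shallow tissues, with 750212 to 951914 counts in colon. They also held little mitochondrial ribosomal RNA, at 0.233% to 0.292% of counts in lung, 0.736% to 0.928% in colon and 4.33% to 40.6% in the other 52 libraries. In lung, Malat1, a nuclear RNA, took 0.0266% to 0.0282% of counts, in colon 0.0151% to 0.0218%, and in the others 0.131% to 1.65%. The part of these differences in the results below was not tested, but the contrast of lung with colon alone is given because these tissues were nearer to each other in both measures than to the rest, although their ranges did not overlap. The blood samples are titled as mononuclear cells and labelled as whole blood.

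Promoter sequences are shown because 1 of them, that of Abca3, belongs to a member whose levels differ from those of the others. RefSeq entries for GRCm38.p6 were held for 5 of the 10 members, each with 250 bases before and 50 bases after the annotated start, and they are printed 5' to 3' on the strand of the gene. Capitals mark TNAAGTG, a core bound by NKX2-1 and other NK2 homeodomain proteins, CTCAAG, which carries the CAAG core of NKX2-1 sites, TGTTTNC, a forkhead core, and TATA beginning 40 to 20 bases before the start. The first 3 were searched on both strands, so some appear as their reverse complement, and TATA was searched on the gene's strand. Sftpa1 lies at chr14:41131538-41131837 on the plus strand, Sftpb at chr6:72304360-72304659 on the plus strand, Scgb3a1 at chr11:49663345-49663644 on the plus strand, Lamp3 at chr16:19706316-19706615 on the minus strand and Abca3 at chr17:24351773-24352072 on the plus strand.
Sftpa1: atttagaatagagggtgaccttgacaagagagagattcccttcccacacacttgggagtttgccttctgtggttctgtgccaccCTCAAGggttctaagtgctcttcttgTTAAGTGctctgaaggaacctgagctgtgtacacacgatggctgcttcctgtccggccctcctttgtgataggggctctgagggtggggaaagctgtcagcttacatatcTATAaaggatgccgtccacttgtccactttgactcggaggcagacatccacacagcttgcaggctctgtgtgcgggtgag
Sftpb: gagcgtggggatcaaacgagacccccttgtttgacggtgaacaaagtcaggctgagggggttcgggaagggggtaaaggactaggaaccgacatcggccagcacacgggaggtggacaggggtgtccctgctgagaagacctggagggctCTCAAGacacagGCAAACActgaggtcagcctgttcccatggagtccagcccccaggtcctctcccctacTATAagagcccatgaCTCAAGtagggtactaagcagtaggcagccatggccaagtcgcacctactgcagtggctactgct
Scgb3a1: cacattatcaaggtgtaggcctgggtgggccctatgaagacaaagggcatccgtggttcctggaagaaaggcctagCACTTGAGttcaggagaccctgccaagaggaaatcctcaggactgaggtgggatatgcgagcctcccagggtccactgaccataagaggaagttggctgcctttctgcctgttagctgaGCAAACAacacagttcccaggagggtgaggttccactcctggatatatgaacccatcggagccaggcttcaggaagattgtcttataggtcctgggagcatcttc
Lamp3: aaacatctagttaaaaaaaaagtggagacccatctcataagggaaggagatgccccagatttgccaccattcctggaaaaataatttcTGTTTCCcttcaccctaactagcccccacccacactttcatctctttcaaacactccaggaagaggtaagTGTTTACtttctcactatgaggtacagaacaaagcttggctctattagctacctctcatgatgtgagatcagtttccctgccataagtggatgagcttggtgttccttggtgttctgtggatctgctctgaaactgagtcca
Abca3: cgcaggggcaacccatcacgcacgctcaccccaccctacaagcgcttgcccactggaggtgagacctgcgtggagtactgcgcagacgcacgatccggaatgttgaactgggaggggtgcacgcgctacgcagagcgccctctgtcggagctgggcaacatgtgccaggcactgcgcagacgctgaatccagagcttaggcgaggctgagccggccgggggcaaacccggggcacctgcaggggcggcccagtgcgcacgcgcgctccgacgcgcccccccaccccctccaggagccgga
The Sftpa1 window held TNAAGTG as well as CTCAAG and the TATA element, and the Sftpb window held 2 CTCAAG, 1 TGTTTNC and the TATA element. In Scgb3a1 the TNAAGTG and CTCAAG matches overlapped, and 1 TGTTTNC lay nearer the start. Lamp3 had 2 TGTTTNC matches, and the letters of these motifs were not found in the Abca3 window. Of 32817 promoter windows of this length, 11.5% held TNAAGTG, 15.9% CTCAAG, 20.5% TGTTTNC and 5.81% the TATA element in that place. The Abca3 window was 69.7% GC with 29 CG dinucleotides, against a median of 52.7% GC and 7 CG over all windows. CG-rich windows were common, as 28% of all windows held 19 or more CG. The other 4 windows had 43.7% to 58.3% GC and 0 to 8 CG.

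The members took 16.85%, 16.70%, 16.07% and 16.35% of all counts in the 4 lung libraries, a mean of 16.49% ± 0.35 (SD, n = 4). Scgb1a1 was the most abundant gene in lung and held 11.7% to 12.3% of the counts, and Sftpc came next with 3.08% to 3.37%. Levels are given as CPM, counts relative to library totals scaled by TMM, and as 3' reads they are not divided by transcript length. By this measure the order in lung was Scgb1a1 (94030 ± 596 CPM), Sftpc (25450 ± 995), Sftpa1 (4679 ± 281), Sftpb (1875 ± 71.6), Scgb3a2 (1447 ± 160), Sftpd (1011 ± 110), Scgb3a1 (1004 ± 144), Napsa (371 ± 15.9), Lamp3 (301 ± 3.05) and Abca3 (11 ± 3.35; SD, n = 4 for each). Sftpd and Scgb3a1 did not differ beyond their spread, and every other neighbour in that order was separated by non-overlapping libraries. Ranked by counts among all genes of lung, Sftpa1 was number 6, Sftpb 18, Scgb3a2 25, Sftpd 43, Scgb3a1 45, Napsa 228, Lamp3 300 and Abca3 8842. The coefficient of variation between lung libraries ran from 0.634% for Scgb1a1 to 30.4% for Abca3, beside a median of 8.27% over the genes with at least 300 CPM in lung.

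**Figure D1:**
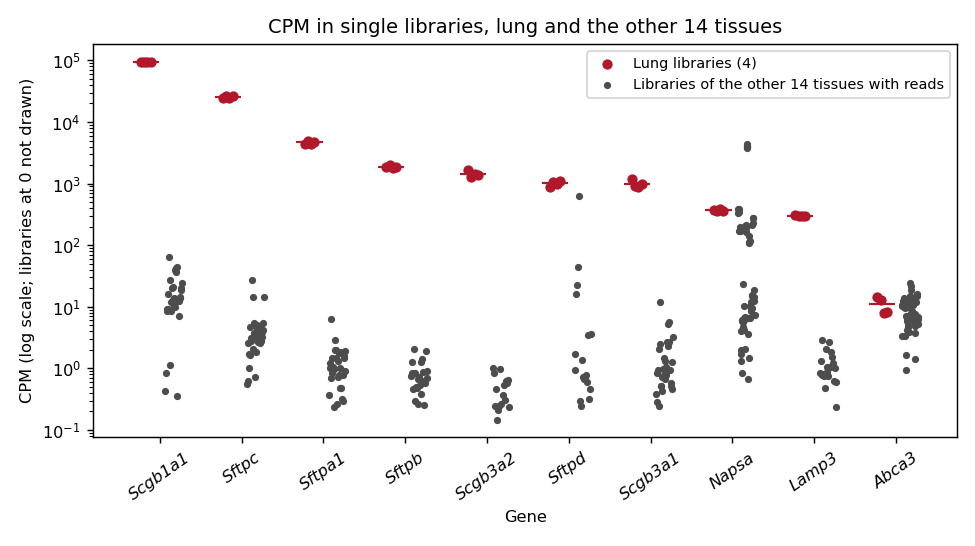
CPM of each member on a log axis in the 4 lung libraries (red, left, line at the mean) and in each library with reads from the other 14 tissues (grey, right). The lung libraries lie above every other library for 8 members, while Napsa and Abca3 overlap with or lie below other tissues.

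Against the equally weighted mean of the other 14 tissues, 9 of the 10 members were called higher in lung, at an adjusted p below 0.05 and a log2 fold change above 1 in edgeR's quasi-likelihood test. Over all tested genes, 16.8% were called higher in lung, and the median log2 fold change was -0.23. The changes were 16.28 ± 0.18 on the log2 scale for Scgb1a1 (estimate ± SE), 15.35 ± 0.17 for Sftpc, 13.96 ± 0.10 for Sftpa1, 13.61 ± 0.11 for Scgb3a2, 13.01 ± 0.12 for Sftpb, 11.96 ± 0.40 for Sftpd, 11.03 ± 0.17 for Scgb3a1 and 10.72 ± 0.15 for Lamp3. Where a tissue had no read of a gene, such a value rests on the prior count of the fit and is no bound on the fold. Napsa was higher by 3.38 ± 0.13 (adjusted p = 1.34e-31). Abca3 was not called, at 0.39 ± 0.21 (adjusted p = 0.115), and stands below as the exception.

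**Figure D2:**
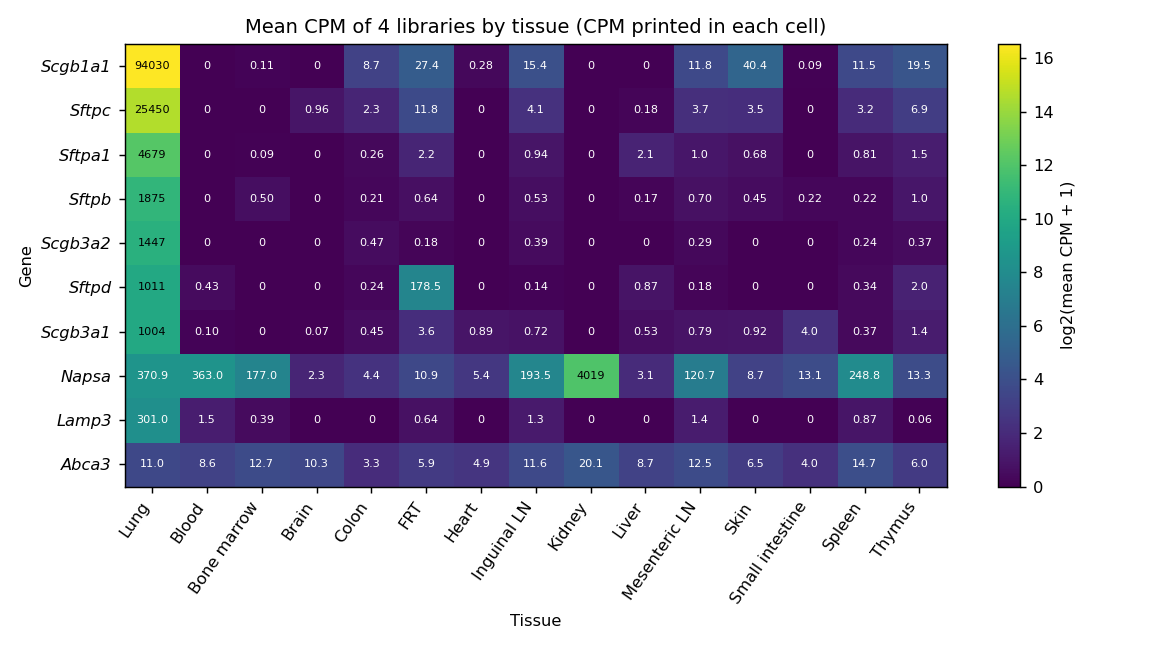
Mean CPM of the 4 libraries of each tissue, printed in each cell and coloured by log2(mean CPM + 1), with genes in rows and tissues in columns (FRT, female reproductive tract; LN, lymph node). Apart from the rows of Napsa and Abca3, cells outside lung stay below 41 CPM, except Sftpd in the female reproductive tract at 178.5.

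Set against single tissues, lung was called higher in 125 of 140 pairs of member and tissue. The share of all tested genes called higher in lung was 23.4% against blood, 23.8% against bone marrow, 21.3% against brain, 15.1% against colon, 13.8% against the female reproductive tract, 19.4% against heart and 18.4% against inguinal lymph node. It was 17.2% against kidney, 22.9% against liver, 17.3% against mesenteric lymph node, 14.5% against skin, 17.4% against small intestine, 20.1% against spleen and 21.6% against thymus. The 8 members other than Napsa and Abca3 were called higher against each of the 14 tissues, and all 4 of their lung libraries lay above all 56 others. Against colon alone, all 10 members were called higher. Tissue restriction was summarised by the tau index, which is 0 for even expression and 1 for a gene of a single tissue. It was 0.871 for Scgb1a1 and 0.910 to 0.984 for the other 7 of these members, 0.580 for Napsa and 0.281 for Abca3. The median was 0.413 over all tested genes, of which 9.66% reached 0.9. Because tau was taken on log2(CPM + 1), its order does not follow the share of the lung level found elsewhere. Scgb1a1 in skin, its next tissue, had 0.043% of its lung mean. Sftpd, at a tau of 0.917, had 17.65% in the female reproductive tract.

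Among the surfactant proteins, Sftpc (chr14:70520949-70524081, minus strand, mm10) had 24720, 26580, 24510 and 25970 CPM in the 4 lung libraries. Its highest library outside lung was a shallow one of the female reproductive tract, at 27 CPM. Sftpa1 (chr14:41131782-41136452, plus strand) had 4455, 5010, 4435 and 4815 CPM in lung and at most 6.23 CPM elsewhere. Sftpb (chr6:72304610-72314371, plus strand) had 1847, 1972, 1803 and 1877 CPM in lung and at most 2.08 CPM elsewhere. In both cases every lung library stood far above all others, and no read was found in any library of 5 tissues for Sftpa1 and of 4 for Sftpb. For kidney, where both had no read, 3 counts over its 4 libraries give a lung level at least 17700-fold higher for Sftpa1 and at least 7120-fold higher for Sftpb. Sftpd (chr14:41172214-41185149, minus strand) had 865, 1081, 988 and 1110 CPM in lung. It was the one surfactant protein gene with a substantial level elsewhere.

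The secretoglobins were as closely tied to lung. Scgb1a1 (chr19:9083636-9087958, minus strand) had 94710, 94060, 93260 and 94090 CPM in the lung libraries, and at most 64.4 CPM in any other. Against blood, brain, kidney and liver, where it had no read, the lung level was at least 275000-fold, 417000-fold, 358000-fold and 180000-fold higher at 3 counts over the 4 libraries of each. Scgb3a1 (chr11:49663610-49665118, plus strand), a secretoglobin of airway secretory cells, had 1206, 919, 887 and 1003 CPM in lung and at most 11.9 CPM elsewhere. Scgb3a2, expressed in club cells of the airway, had 1667, 1299, 1454 and 1369 CPM in lung and the highest tau of the members, 0.984, with at most 0.47 CPM on average in another tissue. Replicate 1 was the highest lung library for all 3 secretoglobins and for none of the 4 surfactant protein genes.

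Of the genes of lamellar bodies, Lamp3 (chr16:19653378-19706375, minus strand) behaved like the surfactant proteins. Its lung libraries held 305, 299, 300.1 and 299.7 CPM. Outside lung it averaged 1.46 CPM in blood, 1.37 in mesenteric lymph node, 1.33 in inguinal lymph node and 0.87 in spleen, with 0.39 in bone marrow. These 5 tissues were the ones in which it was called higher than in the other 13 outside lung, and it had no read in any library of 7 tissues. Lamp3 passed the filter on low counts only through lung, so these calls compare levels that the filter would have removed. LAMP3 is also known as a marker of mature dendritic cells. Of 12 tested genes on a list for those cells, 6 were called higher in lung, beside 16.8% of all tested genes. The median log2 change of the 12 was 1.13, against -0.23 over all genes. The summed level of the 14 listed genes was 392 to 447 CPM in lung. It was 1223 to 1497 CPM in inguinal lymph node, 837 to 1170 in mesenteric lymph node, 574 to 621 in spleen and 119 to 129 in bone marrow. Among the 6, Ccl17 had 24.98 ± 5.45 CPM in lung, its highest tissue, and Ccl22 12.8 ± 5.77, beside 131.9 CPM in inguinal lymph node. The other 6 were not called, among them Birc3 at -0.54 ± 0.22 (adjusted p = 0.0388), Cd83 at -0.49 ± 0.23 (adjusted p = 0.0646), Relb at -0.14 ± 0.15 and Fscn1 at -0.09 ± 0.18.

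Napsa (chr7:44572380-44586862, plus strand) was highest in kidney, not in lung. Lung libraries had 378, 354, 389.5 and 363 CPM, against 4052, 3955, 4340 and 3729 CPM in kidney. The groups did not overlap, and lung was called lower with a log2 difference of -3.44 ± 0.21 (adjusted p = 5.92e-21), the 1 pair in which a member was called lower in lung; over all tested genes 25.1% were. The kidney is a known site of napsin A, in the proximal tubule. Blood was level with lung, at 389.5, 336, 382 and 344 CPM, and the libraries of lung and blood overlapped (log2 difference 0.03 ± 0.20, adjusted p = 0.942). Spleen had 249 ± 31.9 CPM, inguinal lymph node 193.5 ± 21.1, bone marrow 177 ± 13.3 and mesenteric lymph node 121 ± 14.3 (SD, n = 4 each), and all of their libraries lay below those of lung. Lung was not called against spleen (0.58 ± 0.20, adjusted p = 0.0105) or inguinal lymph node (0.94 ± 0.20, adjusted p = 5.51e-05), which miss the fold threshold. The difference from inguinal lymph node passed it under most alternatives. The other 8 tissues averaged 2.27 to 13.3 CPM, thymus among them at 13.3 ± 4.87. Napsa shares exon sequence with Gm15396 on the opposite strand. With no strand setting stated for the counting, whether reads of the pair were kept apart is not known.

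**Figure D3:**
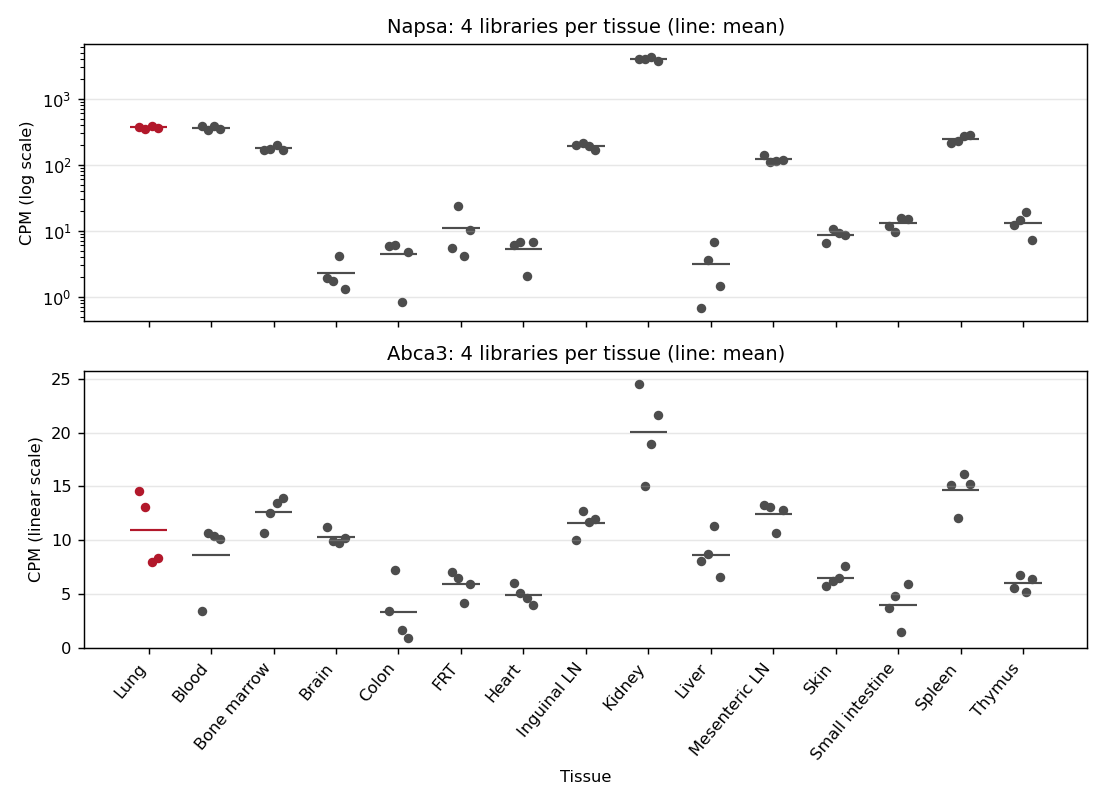
CPM of Napsa (top, log axis) and Abca3 (bottom, linear axis from 0) in the 4 libraries of each tissue, lung in red at the left, with a line at each mean. Kidney is highest for both; Napsa splits into tissues at 121 CPM or more and tissues at 13.3 or less, whereas Abca3 spans 3.31 to 20.06 CPM.

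Abca3 (chr17:24351950-24410201, plus strand) was not highest in lung. Its 4 lung libraries had 14.6, 13.1, 7.95 and 8.37 CPM, from 11 to 18 counts each. Kidney led with 20.06 ± 4.05 CPM, followed by spleen (14.7 ± 1.78), bone marrow (12.7 ± 1.43), mesenteric lymph node (12.5 ± 1.23) and inguinal lymph node (11.6 ± 1.13; SD, n = 4 each). Lung came next, and its libraries overlapped with those of spleen, bone marrow and both lymph nodes but not with those of kidney. Brain had 10.3 ± 0.64 CPM and liver 8.67 ± 1.96, and the lowest levels were in small intestine (3.98 ± 1.93) and colon (3.31 ± 2.79). Abca3 was called higher in lung than in 3 tissues, namely colon (1.74 ± 0.37 on the log2 scale), small intestine (1.501 ± 0.30) and heart (1.12 ± 0.30). Kidney was the 1 tissue outside lung in which it was called higher than in the other 13, by 1.38 ± 0.14 (adjusted p = 1.54e-12). D330041H03Rik overlaps Abca3 on the opposite strand, and with no strand setting stated for the counting, its effect on the counts of Abca3 is not known. Lung differed from kidney by -0.88 (adjusted p = 0.00109), from thymus by 0.87 (0.00422), from skin by 0.74 (0.0196) and from the female reproductive tract by 0.75 (0.0214), which miss the fold threshold. From the remaining 7 tissues a difference was not detectable at this depth.

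With lung left aside, each tissue was set against the other 13, and 47 pairs of member and tissue were called higher. Members such as Scgb3a2, Sftpb, Lamp3 and Sftpa1, at most 0.47, 1.04, 1.46 and 2.25 CPM on average outside lung, passed the filter on low counts only through lung. Their calls here therefore compare levels that the filter would have removed. There were 7 members in inguinal lymph node, where 16.3% of all tested genes were called higher, and 7 in mesenteric lymph node (16.2%). The female reproductive tract had 6 (22.8%), spleen 6 (16.6%) and thymus 6 (17.9%). Bone marrow, colon and skin had 3 each (16.5%, 18.1% and 18.4%), blood and kidney 2 each (17.2% and 21.8%), and liver and small intestine 1 each (18% and 19.6%). In edgeR's test no member was called higher in brain (27.1%) or heart (20.8%), where 1 and 0 had an unadjusted p below 0.05 and DESeq2 and limma called 0 in both. Apart from Napsa, Abca3 and Sftpd, these calls concern mean levels of at most 40.4 CPM, and some rest on a few reads. Scgb3a2 was called on 2 reads in colon and 3 each in spleen and the female reproductive tract. In bone marrow, Lamp3 was called on 4 reads and Sftpb on 5. Each of these was lost in 3 or 4 of 12 alternatives.

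Scgb1a1 and Sftpc made up 14 of them, in the same 7 tissues. Skin had 103, 88, 107 and 92 reads of Scgb1a1 in its 4 libraries, thymus 49, 57, 86 and 54, and inguinal lymph node 57, 57, 80 and 88. Mesenteric lymph node had 49, 28, 53 and 38, spleen 40, 22, 49 and 47, the female reproductive tract 38, 38, 31 and 32, and colon 1, 9, 10 and 17. In blood, bone marrow, brain, heart, kidney, liver and small intestine, Scgb1a1 had 0 to 2 reads in every library. The mean level was 0.043% of that of lung in skin, 0.029% in the female reproductive tract, 0.021% in thymus, 0.016% in inguinal lymph node, 0.013% in mesenteric lymph node, 0.012% in spleen and 0.0092% in colon. In the female reproductive tract the read numbers hardly differed while the totals ran from 353605 to 3134683 counts, so that CPM was 64.4 in the shallowest library and 9.21, 8.85 and 27.2 in replicates 1, 2 and 4.

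Sftpc reads accompanied those of Scgb1a1. Per 100 Scgb1a1 reads there were 27.01 of Sftpc in lung (95% interval 26.85 to 27.17), 27.03 in colon (11.99 to 55.4), 26.6 in inguinal lymph node (20.3 to 34.4), 27.2 in spleen (18.96 to 38.3), 31.55 in mesenteric lymph node (22.7 to 43.2) and 32.5 in thymus (24.95 to 42.01). The interval lay above the lung ratio in the female reproductive tract, at 39.6 (28.4 to 54.4), and below it in skin, at 8.97 (6.16 to 12.7). In single libraries, skin had 7.64 to 15.3 Scgb1a1 reads per Sftpc read and lung 3.54 to 3.83, and the libraries did not overlap. Brain departed from both, with 12 Sftpc reads and none of Scgb1a1. Other members kept to the lung ratio only in part. Scgb3a1, at 1.06 in lung, had 4.97 (2.68 to 8.47) in inguinal lymph node and 6.1 (3.36 to 10.3) in thymus. In spleen its interval held the lung ratio, at 3.17 (1.01 to 7.54). Sftpd, at 1.08 in lung, had 9.35 (5.82 to 14.4) in thymus and 1.06 (0.22 to 3.14) in inguinal lymph node. These intervals pool 4 libraries, cover counting error only and describe tissues picked for having such reads.

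**Figure D4:**
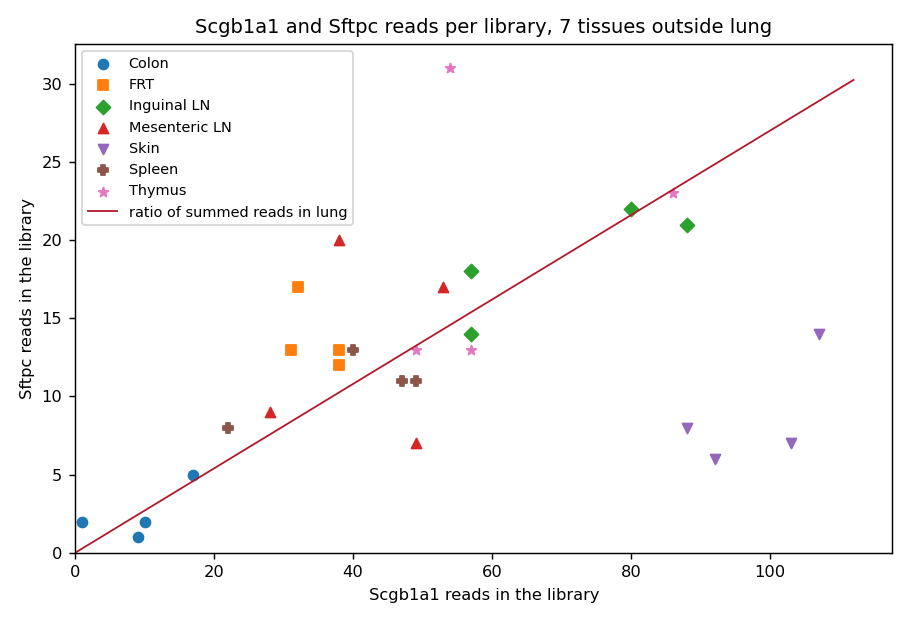
Reads of Scgb1a1 (x axis) and Sftpc (y axis) in each library of the 7 tissues outside lung in which all 4 libraries held both, with the ratio of summed reads in lung as a line. The skin libraries (88 to 107 Scgb1a1 and 6 to 14 Sftpc reads) lie below the line.

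Other lung genes, named after their values were seen, varied in their reads outside lung. Sfta2 and Cldn18, at 241 and 498 CPM in lung, had 0 to 3 reads in each of the 7 tissues. Lung held 1253 and 2583 reads of them beside 489096 of Scgb1a1, so at the lung ratio few could be seen here. Cxcl15 (1856 CPM in lung) had 77 reads in the female reproductive tract, 53 in inguinal lymph node, 2 in skin and 7 in thymus. Ager (1784 CPM in lung) had 185 in inguinal lymph node, 128 in thymus, 14 in skin and 98 in blood. Cyp2f2 (3180 CPM in lung) had 805 in skin, 461 in the female reproductive tract, 9 in spleen and 11449 in liver. Bpifa1 (431 CPM in lung) had 118 reads in thymus and at most 3 in any other tissue outside lung. Kap, a transcript of the kidney with 12560 CPM there, had 0 reads in lung, 168 in heart (22.1 ± 6.90 CPM) and 66 in blood (8.76 ± 5.56). Its 69 reads in thymus were spread unevenly over the libraries, at 4.06 ± 8.12 CPM (SD, n = 4 each). Samples were barcoded during reverse transcription and pooled before amplification, per the labels' protocols. The part of pooling, of tissue carried along at dissection and of expression in these tissues was not tested.

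Of the surfactant protein genes, Sftpd had the highest level outside lung. Its female reproductive tract libraries had 16.2, 22.8, 43.6 and 631 CPM, from 67, 98, 21 and 742 reads. All 4 stood above every library of the other 13 tissues outside lung, whose highest was 3.67 CPM in thymus, and all 4 stood below the lung libraries. The gene was called higher than in the other 13 by 10.14 ± 0.57 on the log2 scale (adjusted p = 1.6e-18), and lung exceeded the female reproductive tract by 2.55 ± 0.54 (adjusted p = 0.000109). Replicate 4 was far above the rest. Without it both calls were kept, but the log2 change against the other 13 was 7.28 ± 0.35 and the difference between lung and this tissue 5.54 ± 0.27. DESeq2's Wald test did not call lung higher than the female reproductive tract (2.58 ± 1.55, adjusted p = 0.155).

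That library also stood apart in some epithelial genes and not in others, chosen after their values were seen. Sprr2f, a small proline-rich protein gene, had 21.3, 8.38, 51.9 and 2982 CPM in replicates 1 to 4. Ltf, which encodes lactoferrin, had 493, 247, 228 and 3065 CPM, and Muc1, a membrane mucin, 27.4, 22.1, 83.1 and 331 CPM. Krt7, a keratin of simple epithelium, had 99.4, 70.8, 289 and 204 CPM, and Foxj1, the factor of ciliated cells, 10.4, 19.3, 2.08 and 7.66 CPM, so that neither was highest in replicate 4. Wfdc2, a secreted epithelial protein gene, had 331, 344, 1173 and 1404 CPM, and Ovgp1, the oviduct glycoprotein gene, 159, 226, 208 and 333 CPM. The summed CPM of 10 oviduct and uterus epithelium genes ran from 1413 to 8572 over the 4 libraries, with none of the 10 at 0 in this tissue, and Sprr2f and Ltf made up most of the sum in replicate 4. Scgb3a1 had 14 of its 16 reads there in replicate 4, and its call in this tissue (2.02 ± 0.69, adjusted p = 0.0118) was lost without that library, at -0.58. The part of these genes' cells in the Sftpd result was not tested. Whole-tissue RNA cannot tell more cells of a type from more RNA per cell.

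**Figure D5:**
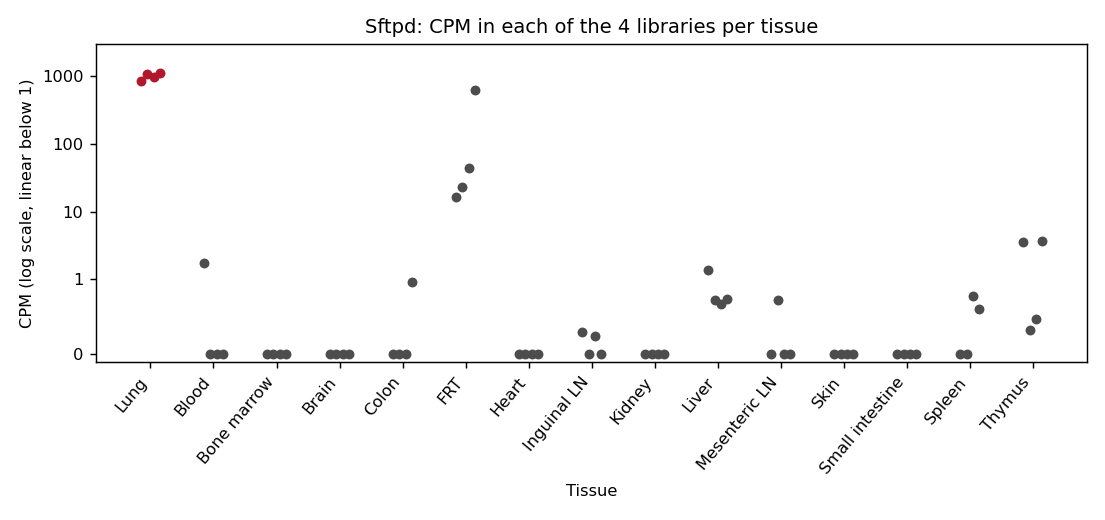
CPM of Sftpd in the 4 libraries of each tissue, lung in red at the left, on an axis that is logarithmic above 1 and linear below. Lung spans 865 to 1110 CPM and the female reproductive tract (FRT) 16.2 to 631.

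Smaller signals were found for other members. Scgb3a1 had 5, 12, 16 and 5 reads in small intestine (4.00 ± 1.74 CPM, SD, n = 4), where it was called higher than in the other 13 tissues by 3.37 ± 0.56 (adjusted p = 8.48e-07) and Scgb1a1 had 1 read. Sftpa1 had 3, 4, 3 and 2 reads in liver (2.10 ± 0.59 CPM) and was called higher there by 3.09 ± 0.52 (adjusted p = 1.72e-06), while liver held no read of Scgb1a1. Sftpa1 passed the filter on low counts only through lung, so this call compares levels that the filter would have removed. Sftpd had 12, 1, 2 and 8 reads in thymus and was not called there. Of all 57 calls outside lung in either direction, 33 held in each of the 12 alternatives run for them. The lower calls among the 57 were of Napsa in 8 tissues and of Abca3 in 2, colon and small intestine. All Napsa calls but the one in thymus were among the 33. Of all tested genes, 20.9% (mesenteric lymph node) to 43.5% (brain) were called in either direction in these contrasts.

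Companion genes of the surfactant system were read from lists. Of 22 tested genes of surfactant regulation and lipid supply, 15 were called higher in lung and 2 lower, with a median log2 change of 1.67, where 12.3% of all tested genes were called lower. Nkx2-1, the homeodomain factor of lung epithelium, had 164 ± 29.9 CPM in lung and 0.082 on average elsewhere, and was higher by 11.14 ± 0.22. Slc34a2, a phosphate transporter of type 2 cells, had 926 ± 55.4 CPM in lung and was higher by 9.25 ± 0.17. The forkhead factors Foxa2 and Foxa1 were higher by 6.43 ± 0.28 and 6.03 ± 0.37, although liver and colon had more of them. Elovl6, a fatty acid elongase, and Pcyt1a, an enzyme of phosphatidylcholine synthesis, were lower by a log2 change of -2.43 ± 0.51 and -2.22 ± 0.37.

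Markers of the lung epithelium moved with the members. Among other type 2 cell genes 11 of 13 were called higher (median 6.80), led by Cxcl15 at 1856 ± 110 CPM and Cldn18 at 498 ± 29.2 CPM. All 14 type 1 cell genes were called higher (median 5.42), including Ager at 1784 ± 33.8 CPM. Of other club and secretory airway genes 12 of 14 were called (median 6.54), with Cyp2f2, a club cell cytochrome P450, at 3180 ± 180 CPM, and all 10 ciliated cell genes were (median 6.69), with Foxj1 at 103 ± 8.99 CPM. Of 12 alveolar macrophage and surfactant clearance genes 8 were called higher (median 2.31), but none of the 12 had its highest level in lung. Chil3, at 344 ± 59.98 CPM in lung, was higher still in bone marrow (1350 CPM). Cardiomyocyte genes were present in lung too, where 7 of 9 were called higher (median 2.76) and their summed level was 423 to 572 CPM, against 86270 to 90770 CPM in heart. Of 8 kidney proximal tubule genes, 6 had no read in lung and the sum was 43.1 to 64.3 CPM, against 18440 to 23470 CPM in kidney. Nearly all of the lung sum was Lrp2, at 54.4 ± 10.7 CPM in lung and 1995 CPM in kidney. Lrp2 was called higher in lung by 5.16 ± 0.22, whereas Kap and Cubn were called lower. Of 10 oviduct and uterus epithelium genes 5 were called higher in lung. Of 8 enterocyte genes edgeR called 3 lower, DESeq2 4 and limma 7. In edgeR, Sis stood at -3.72 with an SE of 17259.7, too wide for a call, so the 3 understate how many were lower. The part of these cells in the members' levels was not tested.

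Most tested paralogues of the members were not called higher in lung, and neither was Abca3 itself. Over all tested genes, 16.8% were called higher and 12.3% lower. Of 9 other collectins and ficolins, 2 were called higher in lung, and the list median was -2.05. Colec12 was one, at 45.6 ± 3.68 CPM in lung, its highest tissue. Mbl1 was the other, with 2.13 ± 1.55 CPM in lung and 364 CPM in liver, since the contrast weighs each tissue's log level equally. Of 5 other aspartic proteases, Ctse (log2 change -2.35 ± 0.85, adjusted p = 0.0172) and Bace1 (-1.23 ± 0.14, adjusted p = 5.78e-11) were called lower. Among 11 other ABCA transporters 4 were called higher and 1 lower, led by Abca9 at -2.96 ± 0.52 and Abca8a at 2.58 ± 0.20. None of the 4 other LAMP family genes was called in edgeR's test, nor by DESeq2 or limma, and 3 were higher at an unadjusted p below 0.05, among them Cd68 at 0.81 ± 0.19.

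Other secretoglobins were nearly silent in these tissues. Of 66 further rows whose symbol begins with Scgb, 57 had no read in any library, 8 had 1 to 10 reads and 1 had more. This was Scgb1c1, with 25.6 ± 5.05 CPM in lung, 35.9 ± 11.9 in heart and 5.83 ± 1.58 in kidney (SD, n = 4 each), and lung and heart libraries overlapped. It was called higher in lung than in the other 14 tissues by 6.70 ± 0.34 (adjusted p = 2.22e-19). Scgb1c1 overlaps C330022C24Rik on the opposite strand, and whether reads of the pair were kept apart is not known.

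The genes closest to each member in level across the 15 tissue means were named by Pearson's r of log2(CPM + 1), as a description of tissue means that share their libraries. Cldn18, a tight junction gene, was nearest to Scgb3a2 (r = 0.997), and Npw, which encodes neuropeptide W, to Sftpb (r = 0.994) and Lamp3 (r = 0.977). Bpifb1, a secreted airway protein gene, was nearest to Sftpa1 (r = 0.985) and Scgb3a1 (r = 0.977), and Cxcl15 to Sftpc (r = 0.966). Sftpd was nearest to the gel-forming mucin gene Muc5b (r = 0.989), and Scgb1a1 to Hilpda (r = 0.916). Napsa was nearest to Susd3 (r = 0.898) and Abca3 to Lrrk2 (r = 0.821), both of them highest in blood.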

How the data were processed

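Whole-tissue RNA was measured by 3' RNA-seq in 15 tissues, with 4 libraries each. The deposited table holds raw counts per gene, made by the authors with STAR and featureCounts on mm10, with FastQC for read quality, per the submitters' processing notes; for tool versions and the strand setting the sources used here say nothing. Of 54532 table rows, 54409 IDs were found in GENCODE M21, which gave positions. All 60 columns were used.

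Counts were analysed with edgeR 4.0.16 (glmQLFit and glmQLFTest, two-sided) in R 4.3.3, in 1 fit of the 60 libraries that had tissue and no other covariate. Genes were kept by filterByExpr (minimum count 10, minimum total 15) and scaled by TMM, and p-values were adjusted by Benjamini-Hochberg over the 18562 tested genes. Contrasts set lung against the other 14, each other tissue against the 13 outside lung, and lung against each tissue. Calls were made at adjusted p under 0.05 where the log2 change exceeded 1 in size; its SE is the change over the square root of F. The procedure was tested on simulated data. The tau index used log2(CPM + 1) of tissue means.

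A tissue without reads has its fold bounded at 3 counts over its 4 libraries; these bounds and the 95% intervals cover counting error only. Alternatives were DESeq2 1.42.0, limma 3.58.1, other scaling, no filter, a replicate block and left-out libraries. Named genes were all members, up to 4 by size of change per list with at least 5 CPM, any called against most of the list, and the gene most like each member; others are said to be chosen after their values were seen. The members and lists were chosen with earlier results of these data known.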

Additional observations from a re-analysis of the deposited data

Results flagged for a closer look

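Among 42 pairs of member and tissue with at least 5 CPM, 5 had 1 library whose gap to the nearest of the other 3 exceeded Dixon's 95% critical value, and chance flags about 1 in 20. Sftpd in female reproductive tract replicate 4 had 631.3 CPM, against 16.2 to 43.6 in the other replicates. Sftpc in thymus replicate 4 had 14.21 CPM, from 31 reads, against 3.83 to 5.41 in the others. Abca3 in blood replicate 1 had 3.409 CPM, from 4 reads, against 10.1 to 10.7. Napsa in bone marrow replicate 3 had 196.7 CPM, against 169 to 173, and in heart replicate 3 it had 2.062 CPM, from 4 reads, against 6.06 to 6.76.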

How the results depend on the processing

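The count of 9 members called higher in lung than in the other 14 tissues was 9 under every alternative run for it, leaving out each replicate number or each lung library in turn included (9 to 9). Of 140 pairs with single tissues, 125 were called in the analysis reported and 125 to 127 under the alternatives, 126 to 127 with a replicate left out. Outside lung, 47 pairs were called higher, 42 to 46 with a replicate left out, 39 with DESeq2's Wald test and 26 with limma on log2 CPM, and the cause of that drop was not tested. The added alternatives without female reproductive tract replicate 3 or 4, chosen after seeing the data, gave 46 and 50. Scgb3a1 in the female reproductive tract (2.02 as reported) reversed to -0.48 without replicate 4 of every tissue, in a range of up to 2.93 with a replicate left out, and to -0.58 without that tissue's replicate 4, which held 14 of its 16 reads. Sftpd in the female reproductive tract, 10.14 as reported, was 5.90 with limma and 7.28 to 10.83 over the left-out libraries. Napsa in lung against inguinal lymph node, not called as reported, passed the fold threshold under most alternatives. It stood at 1.02 with DESeq2 size factors, 1.03 without the filter and 1.04 to 1.18 with a replicate left out. Library totals (0.93), limma (0.94) and the replicate block (0.94) left it uncalled. Abca3 in lung against thymus and liver passed the threshold under some alternatives. The members' share of lung counts was 17.09% of nuclear protein-coding counts, in place of 16.49% of all counts, as fewer counts form the denominator. Of all tested genes, 3124 were called higher and 2278 lower in lung with TMM, against 4074 and 1462 with library totals, which moved the median log2 change to 0.13.

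Replicate numbers are not stated to mark mice. Libraries of equal number had a median correlation of deviations of 0.015, against -0.0055 for other numbers, and 7 of 420 such pairs exceeded 0.1, although 48 of 60 libraries were closest on average to their own number. With the replicate block the counts were 9, 125 and 47. Depth limits Abca3, Lamp3 outside lung and all levels of a few reads.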
